A study of Mus musculus with 8 samples.

Results

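The matricellular genes examined were Thbs1, Thbs2, Thbs3, Thbs4, Comp, Tnc, Tnxb, Sparc, Sparcl1 and Spp1, chosen by their gene symbols. All 10 were listed among the 18957 genes of the count files, and 9 passed a filter on low counts that left 13036 genes, the exception being Spp1. RNA was sequenced from ventricular cells of mice aged 3 to 4 weeks, sorted as living, negative for hematopoietic lineage markers and positive for PDGFRA, a surface receptor of cardiac fibroblasts, with 4 libraries for each genotype. The Pdgfra-Cre:LmnaF/F mice carried a Lmna gene with exon 2 flanked by loxP sites on both alleles and a bacterial artificial chromosome transgene that expresses Cre under control of Pdgfra, and the WT mice were littermates with wild-type alleles and no Cre. Both genotypes were labelled C57BL/6 (mixed), and the labels give no treatment for either group. Cre-only mice were not analysed here, so the presence of Cre and the loss of Lmna cannot be told apart. Pdgfra also marks cells other than cardiac fibroblasts, and this Cre acts in a subset of cardiac myocytes as well. The sources used here do not say how many mice went into a library, so the p-values measure the spread between these libraries, which may be partly technical.

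Matricellular proteins are secreted into the extracellular matrix, where they bind collagen, growth factors, proteases and cell-surface receptors rather than forming the load-bearing fibrils themselves. The synthesis of many thrombospondins, tenascins, SPARC-family proteins and osteopontin is known to rise during development, wound repair and cardiac remodelling. In the heart, fibroblasts are a known source of thrombospondins, tenascins and SPARC, while macrophages and injured or stressed cells are known sources of osteopontin.

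Total counts lay between 2080555 in WT replicate 2 and 12502949 in Pdgfra-Cre:LmnaF/F replicate 4. Lmna, the targeted gene, was lower in each Pdgfra-Cre:LmnaF/F library, at 90.4 to 129.97 counts per 1000000 counts (CPM) against 274 to 483 CPM in WT. The 11 fibroblast markers summed to 86389 to 102345 CPM in WT and 83928 to 97619 CPM in Pdgfra-Cre:LmnaF/F, and none of them was at 0 in any library. Pdgfra-Cre:LmnaF/F replicate 4 stood apart in markers of other cells. Its 8 cardiomyocyte markers summed to 3297 CPM against 225 to 668 CPM in the other libraries, and each of the 8 was highest there. Its 8 macrophage markers summed to 482 CPM against 50.01 to 191 CPM, and 7 of the 8 were highest there. None of 10 marker lists passed an exact two-sided permutation test adjusted over the lists, the lowest p being 0.0571 for the 8 endothelial markers (adjusted p = 0.429), where 0.0286 is the smallest p that 4 against 4 libraries allow. Fewer cells of a type and less RNA per cell cannot be told apart in such bulk libraries.

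Levels were first compared between the genes, as CPM per kilobase (kb) of annotated exon. Sparc, a collagen-binding calcium-binding glycoprotein, was the most abundant of the 10 transcripts in WT at 1552 ± 182 CPM per kb (SD, n = 4). Only 8 of 13006 genes with a length had a higher WT mean, and Sparc made up 54.3% of the summed level of the 10 genes. Sparcl1, which encodes the SPARC paralog hevin, followed at 769 ± 377 CPM per kb, and Tnxb, which encodes the collagen-associated tenascin-X, at 333 ± 134 CPM per kb. The WT ranges of Sparc and Sparcl1 did not overlap, whereas those of Sparcl1 and Tnxb did.

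Thbs2 stood at 117 ± 42.8 CPM per kb in WT, Thbs1 at 50.2 ± 9.03 CPM per kb and Thbs3 at 31.0 ± 4.79 CPM per kb. The WT ranges of these 3 thrombospondins were separate from each other and from Tnxb above and Tnc below. Tnc averaged 4.14 ± 2.46 CPM per kb in WT, Thbs4 0.693 ± 1.07, Comp 0.675 ± 0.486 and Spp1 0.378 ± 0.579 CPM per kb. The WT range of Tnc lay above those of Comp and Spp1 and overlapped that of Thbs4, and the ranges of Thbs4, Comp and Spp1 overlapped each other. The sorted WT cells thus held a group of 6 well measured transcripts and a group of 4 at low levels.

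In Pdgfra-Cre:LmnaF/F the 2 highest genes kept their places, with Sparc at 998 ± 205 CPM per kb and Sparcl1 at 635 ± 299 CPM per kb. Thbs2 came next at 302 ± 157 CPM per kb, above Tnxb at 234 ± 36.9 CPM per kb. Thbs1 stood at 173 ± 140 CPM per kb. The ranges of each neighbouring pair among these 5 genes overlapped in this genotype. The share of Sparc in the summed level was 41.7% in Pdgfra-Cre:LmnaF/F, and per library it was 45.9% to 61.7% in WT and 34.2% to 52.7% in Pdgfra-Cre:LmnaF/F.

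**Figure D1:**
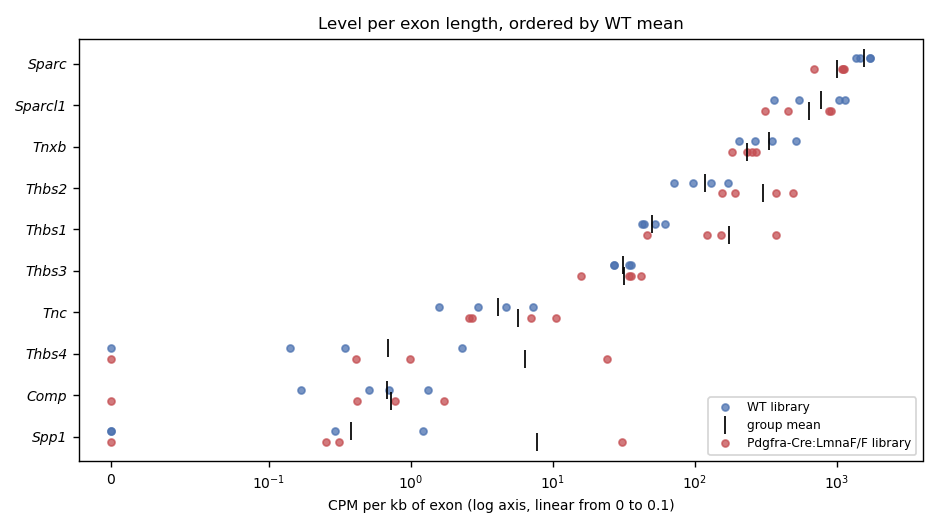
CPM per kb of exon of the 10 matricellular genes, ordered by WT mean, on an axis that is logarithmic above 0.1 and linear below it. Each point is 1 library, blue for WT and red for Pdgfra-Cre:LmnaF/F, and black bars are the means of 4 libraries. Sparc lies highest in both genotypes, and Thbs4, Comp and Spp1 have libraries at 0.

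Positions are given in coordinates of mm10 and GENCODE M21. The 5 thrombospondin genes are on separate chromosomes, with Thbs1 at chr2:118111876-118127133 (+), Thbs2 at chr17:14665500-14694235 (-), Thbs3 at chr3:89215180-89226837 (+), Thbs4 at chr13:92751590-92794818 (-) and Comp at chr8:70373558-70382066 (+). Thbs3 lies 705.2 kb from Lmna, and 318 bases of its exons overlap exons of Mtx1 on the opposite strand. Whether the counting used strand is not given in the sources used here, so part of the reads of Thbs3 may belong to Mtx1. Exons also overlap on opposite strands by 208 bases between Thbs1 and Gm29233 and by 176 bases between Tnc and 8030451A03Rik. Those of Spp1 overlap Gm42793 by 309 bases on the same strand. Gm29233, 8030451A03Rik and Gm42793 are not listed in the count files. Tnc is at chr4:63959785-64047015 (-), Tnxb at chr17:34670535-34719815 (+) and Sparc at chr11:55394500-55423183 (-). Sparcl1 at chr5:104079111-104113733 (-) and Spp1 at chr5:104435118-104441050 (+) are 321.4 kb apart, in the cluster that also holds the genes of bone and tooth phosphoproteins. Of the 16 genes examined as neighbours of these loci, 10 passed the filter and none passed an unadjusted or adjusted p of 0.05 by edgeR, or an adjusted p of 0.05 by DESeq2. Among them Pkd2, beside Spp1, had a log2 fold change of -0.29 (adjusted p = 0.601 by edgeR).

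Promoter windows of 300 bases, from 250 bases before to 50 after an annotated start, were held in the RefSeq table (GRCm38.p6) for 7 of the 10 genes. Those of Thbs2 (chr17:14694213-14694512, minus strand) and Sparc (chr11:55420031-55420330, minus strand) are shown because these were the genes that DESeq2 called. Capitals mark matches, on either strand, to 8 searched motifs. The motifs were the AP-1 site TGANTCA with cytosine or guanine in the middle, the cyclic AMP response element (CRE) TGACGTCA, the NR4A receptor site (NBRE) AAAGGTCA, the CArG box of serum response factor, the EGR factor site GCGNGGGCG with thymine or guanine at the fourth base, the core TATAAA of the TATA box, the NF-Y box CCAAT and the SP1 site GGGCGG, called the GC box.
Thbs2: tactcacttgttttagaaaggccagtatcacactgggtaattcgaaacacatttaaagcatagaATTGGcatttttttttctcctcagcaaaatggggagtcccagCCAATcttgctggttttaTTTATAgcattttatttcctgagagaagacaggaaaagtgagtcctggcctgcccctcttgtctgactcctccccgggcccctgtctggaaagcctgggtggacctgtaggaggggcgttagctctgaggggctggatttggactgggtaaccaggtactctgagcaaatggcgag
Sparc: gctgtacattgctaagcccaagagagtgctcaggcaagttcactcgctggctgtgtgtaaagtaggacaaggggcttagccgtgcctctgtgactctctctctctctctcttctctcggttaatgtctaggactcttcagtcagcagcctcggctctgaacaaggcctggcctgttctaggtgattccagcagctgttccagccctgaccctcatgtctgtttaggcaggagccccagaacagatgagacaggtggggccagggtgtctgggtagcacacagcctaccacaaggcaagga
The Thbs2 window holds CCAAT at -186 to -182 and -144 to -140 and TATAAA at -126 to -121 from the start. CCAAT occurs in 37.4% and TATAAA in 13.6% of all 32851 windows of this length. The Sparc window holds none of the 8 motifs. It lies inside the gene, however, whose annotated 5' end on the minus strand is at 55423183. No window held in the RefSeq table covers that end, so the absence of motifs does not describe it. Among the other windows, that of Tnxb holds AP-1 at -55 to -49 and NBRE at -65 to -58, motifs found in 5.2% and 1.51% of all windows. Those of Tnc hold an EGR motif (3.47% of windows) that overlaps a GC box (35.7%), and those of Thbs3 and Thbs4 hold GC boxes. TATAAA is also in the windows of Tnc, CCAAT in that of Thbs3, and both in the Spp1 window that starts at chr5:104434861. CRE and the CArG box, found in 1.79% and 1.63% of windows, were in no window of these genes. Such matches are letters in a window and not measured sites.

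The genotypes were then compared gene by gene, to ask which matricellular transcripts differ in the sorted cells after deletion of Lmna and before overt cardiac dysfunction. In the means, Thbs1 was 3.45-fold and Thbs2 2.57-fold higher in Pdgfra-Cre:LmnaF/F than in WT, and Sparc was 1.55-fold lower. Thbs3, Comp, Tnc, Tnxb and Sparcl1 differed by less than 1.5-fold. None of the 9 tested genes passed an adjusted p of 0.05 by edgeR's quasi-likelihood test, which called 0.407% of all tested genes (53 of 13036). DESeq2, the tool named in the study's methods, called Thbs2 and Sparc at the same threshold, and 2.15% of all genes it tested. At an unadjusted p under 0.05 by edgeR, 4 of the 9 passed, beside 11.9% of all genes. Thbs1, Thbs2 and Thbs4 did so in the higher direction (background 6.24%) and Sparc in the lower (background 5.65%). The median log2 fold change of the 9 genes was 0.07 and that of all tested genes 0.02. The groups did not overlap for Sparc alone, which was lower in each Pdgfra-Cre:LmnaF/F library, and 3.97% of all genes were separated in this direction and 4.06% in the other.

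**Figure D2:**
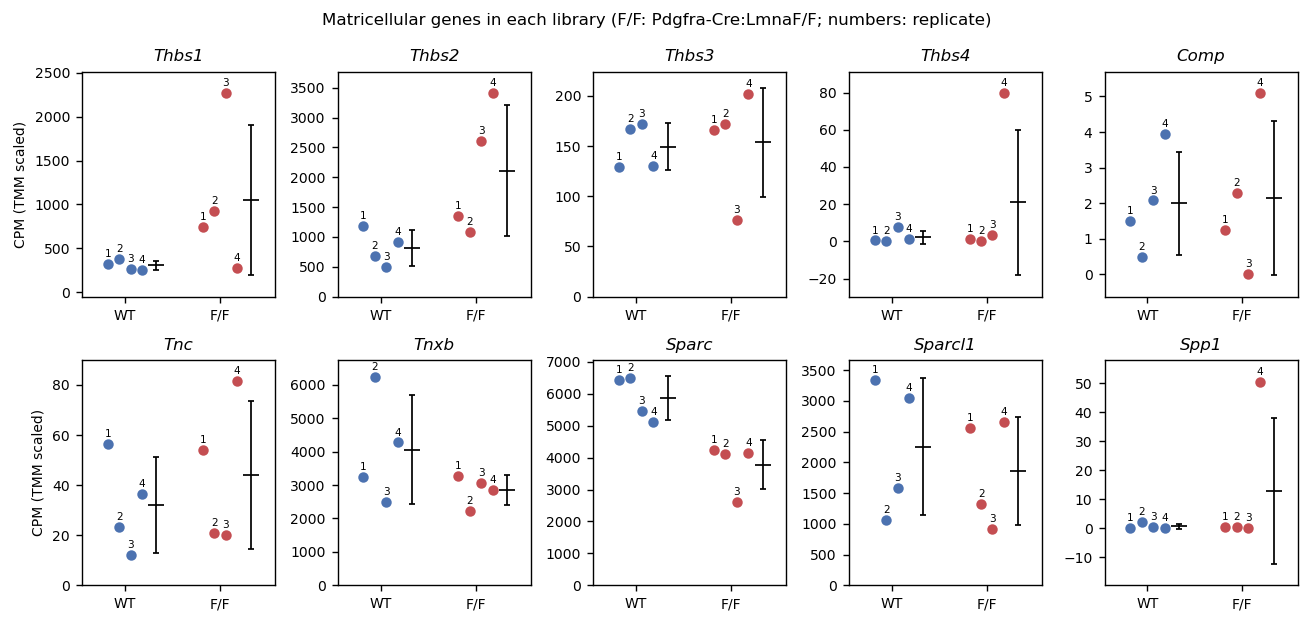
CPM of each matricellular gene in each library, blue for WT and red for Pdgfra-Cre:LmnaF/F (F/F), with the replicate number above each point and the mean and SD of 4 libraries beside the points. The vertical scales differ between genes. Sparc is the gene whose groups are separate, and replicate 4 of Pdgfra-Cre:LmnaF/F is the highest library for 6 of the 10 genes, as it is for 17.29% of all 13036 tested genes.

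Thbs1 encodes thrombospondin-1, a trimeric ligand of CD47 and CD36 that can activate latent TGFβ. Its level was 320, 375, 266 and 257 CPM in WT replicates 1 to 4. It was 741, 920, 2265 and 278 CPM in Pdgfra-Cre:LmnaF/F replicates 1 to 4. Thus 3 Pdgfra-Cre:LmnaF/F libraries lay above each WT library, and replicate 4 lay within the WT range. The means were 305 ± 54.8 CPM and 1051 ± 853 CPM (SD, n = 4), a log2 fold change of 1.79 with a standard error of 0.44 (adjusted p = 0.114, edgeR). The SD was 18% of the mean in WT and 81.2% in Pdgfra-Cre:LmnaF/F. Without replicate 4 of Pdgfra-Cre:LmnaF/F the log2 fold change was 2.10 and Thbs1 passed (adjusted p = 0.00709, edgeR), in a fit that called 0.565% of all genes. Without replicate 3 it was 1.09 (adjusted p = 0.268, edgeR), so the size of the Thbs1 difference depended on these 2 libraries. With all 8 libraries and no filter on low counts, edgeR also called Thbs1 (adjusted p = 0.000412), and DESeq2 did so without replicate 3 (adjusted p = 0.0464) but not with all 8 libraries (adjusted p = 0.0929).

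Immediate-early genes are induced within minutes by many stimuli, enzymatic dissociation of tissue included. A list of 23 such dissociation-responsive genes was summed beside Thbs1, most of them immediate-early genes and 4 of them heat-shock genes (Hspa1a, Hspa1b, Hsp90aa1 and Dnajb1). The sum was 5168, 3268, 6926 and 4594 CPM in WT replicates 1 to 4. In Pdgfra-Cre:LmnaF/F it was 9582, 10647, 15378 and 9782 CPM. Replicate 3 of Pdgfra-Cre:LmnaF/F held both the highest Thbs1 level and the highest sum, and 12 of the 23 genes were highest there, beside 15.07% of all tested genes. Replicate 4 had a sum above each WT library and a Thbs1 level within the WT range. Of the 23 genes, 3 were higher by an adjusted p under 0.05 in edgeR, namely Ier3 (log2 fold change 1.88), Btg2 (2.08) and Nr4a1 (1.92), and 15 were higher at an unadjusted p under 0.05. DESeq2 called 12 of the 23, all higher. Their median log2 fold change was 1.32. The part of this response in the level of Thbs1 was not tested.

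The tested genes outside the 10 whose profile over the 8 libraries was closest to that of Thbs1 were Nr4a3, an orphan nuclear receptor of the immediate-early class, and Coq10b, a coenzyme Q-binding protein. The root mean square difference from Thbs1, in log2 CPM centred on each gene's mean, was 0.30 for Nr4a3 and 0.35 for Coq10b.

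**Figure D3:**
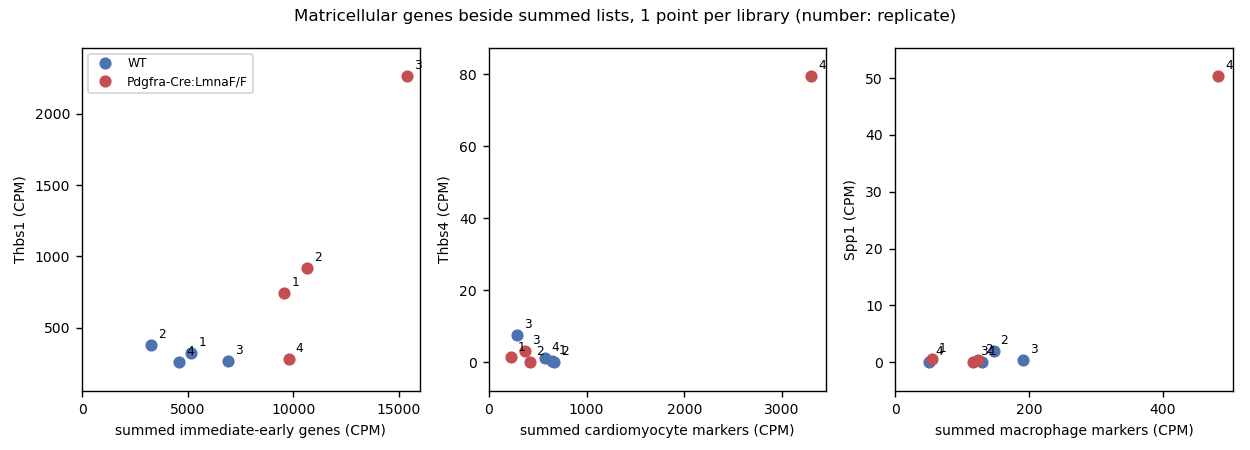
CPM of Thbs1 against the summed immediate-early and heat-shock genes, of Thbs4 against the summed cardiomyocyte markers, and of Spp1 against the summed macrophage markers. Each point is 1 library, blue for WT and red for Pdgfra-Cre:LmnaF/F, with its replicate number. Replicate 3 of Pdgfra-Cre:LmnaF/F is highest on both axes of the first panel, and replicate 4 on both axes of the other panels.

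Thbs2 encodes thrombospondin-2, a trimeric relative of thrombospondin-1 that binds the protease MMP2 and the scavenger receptor LRP1 and shapes collagen fibril assembly. The WT libraries held 1191, 682, 497 and 913 CPM in replicates 1 to 4. The Pdgfra-Cre:LmnaF/F libraries held 1346, 1079, 2605 and 3420 CPM. The groups overlapped only in that replicate 2 of Pdgfra-Cre:LmnaF/F lay below replicate 1 of WT. The means were 821 ± 300 CPM and 2112 ± 1097 CPM (SD, n = 4), a log2 fold change of 1.36 with a standard error of 0.36 (adjusted p = 0.130, edgeR). DESeq2 gave a log2 fold change of 1.37 and an adjusted p of 0.00342, and this call was absent in DESeq2 without replicate 4 (1.03, adjusted p = 0.274) and without replicate 3 (1.25, adjusted p = 0.337) of Pdgfra-Cre:LmnaF/F. With all 8 libraries, DESeq2 with 1 factor of unwanted variation (adjusted p = 0.000125) and edgeR with no filter (adjusted p = 0.00521) also called Thbs2. Limma-voom with quality weights did not (adjusted p = 0.0816). Across the 8 fits that omit a library, the edgeR log2 fold change stayed between 1.03 and 1.60.

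The libraries that were highest differed between the 2 trimeric thrombospondins. Thbs1 peaked in replicate 3 and Thbs2 in replicate 4 of Pdgfra-Cre:LmnaF/F, the library with the raised cardiomyocyte and macrophage markers. The ratio of Thbs1 to Thbs2, per kb of exon, was 0.310, 0.635, 0.617 and 0.324 in WT replicates 1 to 4. In Pdgfra-Cre:LmnaF/F it was 0.635, 0.984, 1.002 and 0.0939. Replicate 4 of Pdgfra-Cre:LmnaF/F had the lowest ratio of the 8 libraries, and replicate 3 the highest. The genes closest in profile to Thbs2 were Gsto1, a glutathione transferase, and Sphk1, a sphingosine kinase, with root mean square differences of 0.22 and 0.25 in centred log2 CPM.

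The pentameric thrombospondins, which lack the type I repeats of the trimeric ones, were Thbs3, Thbs4 and Comp. Thbs3 was at 129, 167, 172 and 130 CPM in WT and at 166, 172, 76.0 and 202 CPM in Pdgfra-Cre:LmnaF/F. Its Pdgfra-Cre:LmnaF/F libraries reached below and above the WT range, and the log2 fold change was 0.05 with a standard error of 0.26 (adjusted p = 0.967, edgeR). Left-out libraries moved it between -0.11 and 0.27, on both sides of 0. Mtx1, named after its value was seen because its exons overlap those of Thbs3, had a log2 fold change of 0.16.

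Thbs4, known as a tendon and muscle thrombospondin that is induced in stressed heart, was nearly absent from most libraries. Its counts were 5, 0, 47 and 11 in WT replicates 1 to 4. They were 13, 0, 28 and 954 in Pdgfra-Cre:LmnaF/F replicates 1 to 4. The 954 counts of replicate 4 correspond to 79.5 CPM, and the next highest library was WT replicate 3 at 7.51 CPM. The log2 fold change of 3.13 with a standard error of 1.45 (adjusted p = 0.413, edgeR) rested on this library, since it was -0.60 without it. The same library had the highest sum of cardiomyocyte markers, although mature cardiac myocytes lack PDGFRA and the sort should remove them, and their part in the Thbs4 level was not tested.

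Comp, the cartilage oligomeric matrix protein, was counted 16, 1, 13 and 38 times in WT and 12, 22, 0 and 61 times in Pdgfra-Cre:LmnaF/F. Its log2 fold change was 0.07 with a standard error of 1.30 (adjusted p = 0.990, edgeR), and left-out libraries moved it between -0.79 and 0.62. A difference of several fold in Comp would not have been detectable at these counts. A count of 0 in a library is compatible with up to 3 counts, by counting error only.

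Tnc encodes tenascin-C, a hexameric protein known from embryonic, wounded and remodelling tissue. Its WT libraries held 56.6, 23.1, 12.3 and 36.7 CPM. Its Pdgfra-Cre:LmnaF/F libraries held 54.1, 21.1, 20.03 and 81.5 CPM. Replicates varied more than genotypes, with an SD of 59.3% of the mean in WT and 66.8% in Pdgfra-Cre:LmnaF/F. The log2 fold change was 0.44 with a standard error of 0.48 (adjusted p = 0.805, edgeR), and it was -0.04 without replicate 4 of Pdgfra-Cre:LmnaF/F.

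Tnxb encodes tenascin-X, the tenascin of resting connective tissue, whose loss in humans causes a form of Ehlers-Danlos syndrome. It was measured at 3238, 6246, 2482 and 4273 CPM in WT. It was at 3273, 2234, 3072 and 2851 CPM in Pdgfra-Cre:LmnaF/F. The Pdgfra-Cre:LmnaF/F libraries were close to each other, and the WT libraries overlapped them and reached higher. The log2 fold change was -0.51 with a standard error of 0.27 (adjusted p = 0.498, edgeR). It was -0.23 without WT replicate 2, the highest library and also the shallowest of the 8. The exons of Tnxb overlap those of the pseudogene Cyp21a2-ps on the opposite strand by 3 bases.

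Sparc encodes the collagen-binding protein SPARC, also called osteonectin, which takes part in procollagen processing. Its WT libraries held 6438, 6487, 5469 and 5115 CPM. Its Pdgfra-Cre:LmnaF/F libraries held 4240, 4120, 2617 and 4147 CPM. The lowest WT library thus lay above the highest Pdgfra-Cre:LmnaF/F library, and replicate 3 was well below the other Pdgfra-Cre:LmnaF/F libraries. The means were 5877 ± 691 CPM and 3781 ± 778 CPM (SD, n = 4), a log2 fold change of -0.64 with a standard error of 0.22 (adjusted p = 0.250, edgeR). DESeq2 gave -0.64 with an adjusted p of 0.0408. The direction held with each library left out, from -0.70 to -0.49, and the latter was without replicate 3 of Pdgfra-Cre:LmnaF/F, where DESeq2's adjusted p was 0.140. The 8 markers of endothelial cells, which are also known to make SPARC, summed to 624 to 904 CPM in WT and 498 to 775 CPM in Pdgfra-Cre:LmnaF/F, and 7 of the 8 had a negative log2 fold change. Cdh5 (-1.17, adjusted p = 0.215, edgeR) and Tek (-0.59, adjusted p = 0.208, edgeR) were lower without overlap, and none of the 8 was at 0 in any library. The sum was mostly Tek, which averaged 473 of 788 CPM in WT and 313 of 597 CPM in Pdgfra-Cre:LmnaF/F. The sort for PDGFRA should remove endothelial cells, and their part in the Sparc level was not tested.

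Sparcl1, the SPARC paralog with a long acidic N-terminal region, was at 3342, 1065, 1580 and 3045 CPM in WT. It was at 2563, 1322, 917 and 2661 CPM in Pdgfra-Cre:LmnaF/F. In both genotypes replicates 1 and 4 were above replicates 2 and 3, and the groups overlapped over most of their range. The log2 fold change was -0.28 with a standard error of 0.38 (adjusted p = 0.854, edgeR). The ratio of Sparc to Sparcl1 per kb lay between 1.30 and 4.72 in WT and between 1.21 and 2.42 in Pdgfra-Cre:LmnaF/F.

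Spp1 encodes osteopontin, a phosphorylated integrin and CD44 ligand made by macrophages, bone cells and injured tissue. Its counts were 0, 4, 3 and 0 in WT and 5, 4, 0 and 604 in Pdgfra-Cre:LmnaF/F, so it was at or near 0 in 7 libraries. In replicate 4 of Pdgfra-Cre:LmnaF/F it reached 50.3 CPM. It did not pass the filter and so has no value in the edgeR test used here, and no fold is given because the difference rested on 1 library. Without the filter edgeR called it, and DESeq2 with 1 factor of unwanted variation did not (adjusted p = 0.631). That library also held the highest macrophage markers, 482 CPM against 50.01 to 191 CPM elsewhere, and none of these 8 markers was at 0 in it. The sort against hematopoietic lineage markers should remove macrophages, and their part in the Spp1 level was not tested.

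**Figure D4:**
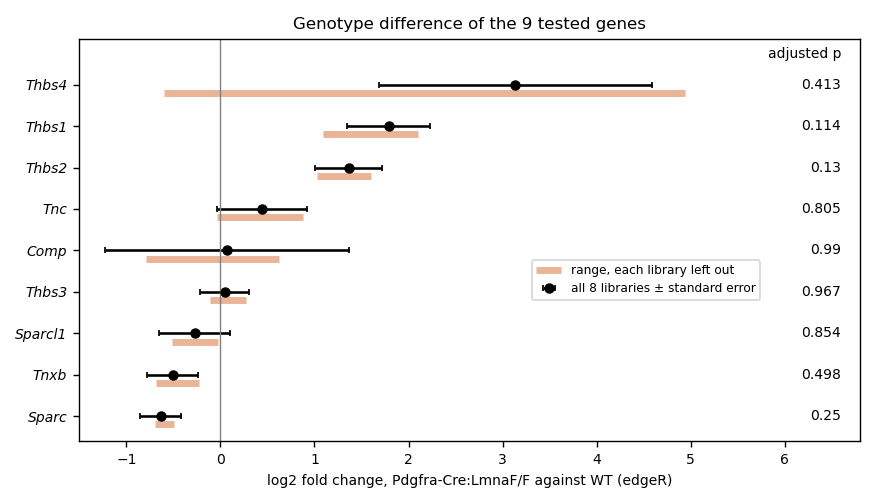
Log2 fold change of Pdgfra-Cre:LmnaF/F against WT for the 9 tested genes (edgeR), with black points and bars for the value and standard error over 8 libraries and orange bars for the range of values with each library left out. The adjusted p stands at the right. Thbs1, Thbs2, Tnxb, Sparc and Sparcl1 keep their direction with each library left out, and Thbs4, Tnc, Comp and Thbs3 do not.

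Other matricellular and related secreted genes showed a like mixture. Of 15 tested genes none passed an adjusted p of 0.05 by edgeR, and at an unadjusted p under 0.05 by edgeR 5 were higher and 2 lower, with a median log2 fold change of 0.11. The lowest p-values belonged to Cyr61 (Ccn1), a growth-factor-inducible integrin ligand, and Lgals3, which encodes galectin-3. Cyr61 was at 311, 138, 478 and 149 CPM in WT and 592, 740, 1226 and 416 CPM in Pdgfra-Cre:LmnaF/F (log2 fold change 1.46, adjusted p = 0.135, edgeR). It is also 1 of the 23 genes summed beside Thbs1. Lgals3 was at 2.24, 6.54, 2.24 and 1.97 CPM in WT and 10.3, 7.09, 3.57 and 58.3 CPM in Pdgfra-Cre:LmnaF/F (log2 fold change 2.73, adjusted p = 0.189, edgeR). Lgals3 was the gene of this list that DESeq2 called (adjusted p = 0.0274). Its highest library was the 1 with the raised macrophage markers, whereas replicate 1 of Pdgfra-Cre:LmnaF/F was above each WT library in Lgals3 with a macrophage sum of 54.7 CPM. The part of macrophages, which the lineage-negative sort should remove, was not tested.

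Receptors of these proteins were 20 tested genes, with 0 higher and 3 lower at an unadjusted p under 0.05 by edgeR, none past the adjusted threshold in edgeR or DESeq2 and a median log2 fold change of -0.05. Itga9, an integrin subunit that binds tenascin-C and osteopontin, averaged 147 CPM in WT and 81.7 CPM in Pdgfra-Cre:LmnaF/F (log2 fold change -0.85, adjusted p = 0.206, edgeR). Calr, which encodes calreticulin, part of a surface complex with LRP1 that binds thrombospondin, averaged 1273 CPM and 840 CPM (-0.60, adjusted p = 0.364, edgeR). The thrombospondin receptors Cd47 and Cd36, named after their values were seen, had log2 fold changes of 0.06 and 0.22.

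Collagens, proteoglycans and growth factors that the matricellular proteins bind were 18 tested genes. None passed the adjusted threshold in edgeR, while 0 were higher and 6 lower at an unadjusted p under 0.05, with a median log2 fold change of -0.19. Col14a1, a fibril-associated collagen, was at 655 to 688 CPM in WT and 288 to 509 CPM in Pdgfra-Cre:LmnaF/F, without overlap (log2 fold change -0.72, adjusted p = 0.194, edgeR). Tgfb3, a TGFβ ligand, was at 179 to 213 CPM in WT and 111 to 161 CPM in Pdgfra-Cre:LmnaF/F, also without overlap (-0.55, adjusted p = 0.249, edgeR). Of this list DESeq2 called Col14a1 alone (adjusted p = 0.0368).

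Proteases and crosslinkers that cleave or modify the matricellular proteins were 15 tested genes, with 1 higher and 2 lower at an unadjusted p under 0.05 by edgeR, none past the adjusted threshold and a median log2 fold change of 0.03. Adamts1, a metalloprotease that cleaves thrombospondin-1 and thrombospondin-2, was at 192 to 244 CPM in WT and 315 to 539 CPM in Pdgfra-Cre:LmnaF/F, without overlap (log2 fold change 0.88, adjusted p = 0.0987, edgeR). Of this list DESeq2 called Adamts1 alone (adjusted p = 0.00414). Tgm2, a transglutaminase that crosslinks osteopontin and other matrix proteins, averaged 206 CPM in WT and 122 CPM in Pdgfra-Cre:LmnaF/F (log2 fold change -0.76, adjusted p = 0.324, edgeR). These lists were chosen with earlier results of these data known, and each count reads against the shares of all genes given above, which were 6.24% higher and 5.65% lower.

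**Figure D5:**
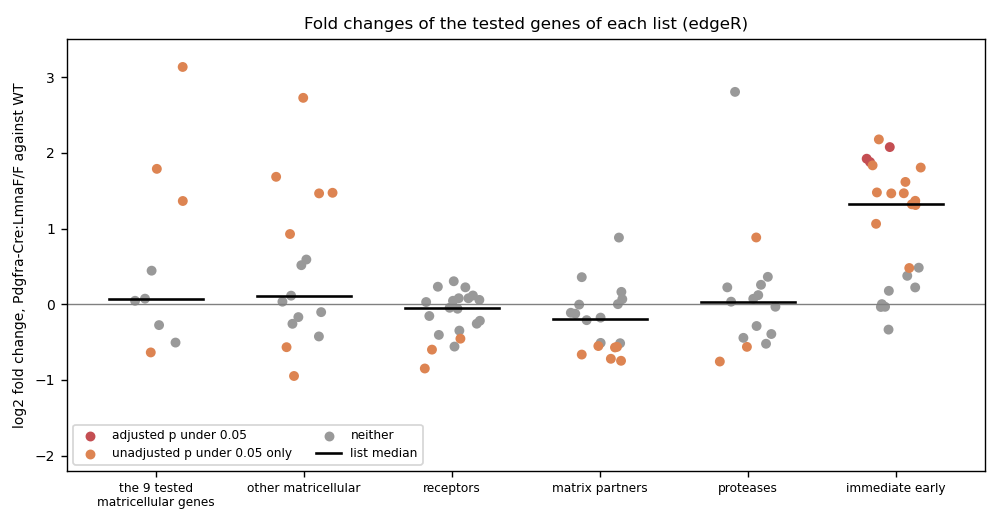
Log2 fold change of Pdgfra-Cre:LmnaF/F against WT (edgeR) for the tested genes of each list, 1 point per gene, red where the adjusted p is under 0.05, orange where only the unadjusted p is, and grey otherwise, with the list median as a black line. The list of immediate-early and heat-shock genes has a median of 1.32, and the other 5 lists drawn have medians between -0.19 and 0.11.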

How the data were processed

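The 10 genes, and the lists of related genes and of cell type markers, were chosen with earlier results of these data known. The authors extracted RNA of sorted cells after collagenase dissociation, kept samples with an RNA Integrity Number above 8, depleted ribosomal RNA and sequenced strand-specific libraries as 150 bp paired-end reads, which were aligned to mm10 with HISAT2 and counted on GENCODE genes with featureCounts. The deposited values are whole-number counts per gene symbol, unscaled. The study's methods used RUV and DESeq2, and the RUV factors are not used here. Each file lists 18957 genes with at least 4 counts over the 8 libraries, so rarer genes had been left out.

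Counts were analysed with edgeR 4.0.16 (TMM factors, filterByExpr with a minimum of 10, quasi-likelihood test, genotype as the only term, Benjamini-Hochberg adjustment over 13036 genes, threshold 0.05) in R 4.3.3. The standard error is the absolute log2 fold change divided by the square root of F. CPM are TMM-scaled, and levels per kb use the merged exons of GENCODE M21, matched by 99.79% of symbols. Summed marker levels were compared with exact permutation tests over the 70 assignments of 4 libraries against 4. Alternatives were DESeq2 1.42.0, limma-voom (limma 3.58.1) with quality weights, other scaling factors and filters, 1 factor of unwanted variation (RUVr), a replicate block, thinning to the lowest total, and each library left out. No libraries were identical. Depths from 2080555 to 12502949 counts limit genes at 3 counts or fewer, by counting error only. Named genes outside the 10 were, in each list, those with an adjusted p under 0.05 or otherwise the 2 of lowest p, with the 2 nearest profiles of the 2 genes of lowest p, and any others are said to have been chosen after their values were seen. Results for some genes that this rule or the lists name are not reported here.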

Additional observations from a re-analysis of the deposited data

Results flagged for a closer look

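A library was taken to stand apart where, in a group of 4, its gap to the nearest other library, as a share of the group's range, exceeded the critical value of Dixon's test at 95%. This was so in 12 of 68 groups. The nominal rate of 1 in 20 applies to normal values in independent groups. These groups share the same libraries, and their genes were chosen with earlier results known, so no excess over chance is read from the count. Among the matricellular genes these were Thbs4 in WT replicate 3 (7.51 CPM) and in Pdgfra-Cre:LmnaF/F replicate 4 (79.5 CPM), Spp1 in Pdgfra-Cre:LmnaF/F replicate 4 (50.3 CPM), and Sparc in Pdgfra-Cre:LmnaF/F replicate 3, where it was lowest (2617 CPM).

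Among the related genes, Lgals3 stood apart in WT replicate 2 (6.54 CPM) and Pdgfra-Cre:LmnaF/F replicate 4 (58.3 CPM), and Ier3 (86.2 CPM) and Nr4a1 (1312 CPM) in Pdgfra-Cre:LmnaF/F replicate 3. Among the summed markers, those of cardiomyocytes (3297 CPM), macrophages (482 CPM) and platelets (14.9 CPM) stood apart in Pdgfra-Cre:LmnaF/F replicate 4, and those of erythroid cells (666 CPM) in Pdgfra-Cre:LmnaF/F replicate 1. Thus 6 of the 12 were in Pdgfra-Cre:LmnaF/F replicate 4.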

How the results depend on the processing

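Thbs1, Thbs2, Tnxb, Sparc and Sparcl1 kept their direction under each alternative run, and 0 of 9 matricellular genes were called in edgeR. Given as matricellular genes called and DEGs over all genes (53 in edgeR), the counts were 2 (Thbs2 and Sparc) and 309 in DESeq2. They were 2 (the same genes) and 472 in DESeq2 with 1 RUVr factor. They were 3 (Thbs1, Thbs2 and Spp1) and 274 with no filter, and 0 and 126 in limma-voom with quality weights. With each library left out they were 0 to 1 and 13 to 76. Chosen after seeing the data, edgeR without WT replicate 2 and Pdgfra-Cre:LmnaF/F replicate 4 called 1 matricellular gene (Thbs1, with 37 DEGs), DESeq2 without Pdgfra-Cre:LmnaF/F replicate 4 called 2 (Thbs1 and Sparc, with 330 DEGs), and DESeq2 without Pdgfra-Cre:LmnaF/F replicate 3 called 1 (Thbs1, with 201 DEGs). The cause of these differences was not tested.

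With each library left out the log2 fold change lay between -0.11 and 0.27 for Thbs3, -0.60 and 4.94 for Thbs4, -0.79 and 0.62 for Comp, and -0.04 and 0.87 for Tnc. Without WT replicate 2 and Pdgfra-Cre:LmnaF/F replicate 4 these were -0.06, -0.98, -1.08 and -0.16, and in DESeq2 without Pdgfra-Cre:LmnaF/F replicate 4 they were -0.12, -0.62, -0.79 and -0.025. Comp was at -1.05 in limma-voom. Deviations from the group means were nearly uncorrelated between same-numbered libraries of the 2 genotypes (correlations between -0.03 and 0.04). This cannot decide whether same-numbered libraries were handled together. Genes at 0 counts numbered 3690, 4314, 5701 and 2393 in WT replicates 1 to 4. They numbered 3610, 4806, 5180 and 2998 in Pdgfra-Cre:LmnaF/F, the same order of replicates. Pairing was not tested further. A replicate block gave 36 DEGs, 0 matricellular genes called, -0.021 for Thbs3 and -0.38 for Comp. Thbs4 and Comp did not pass a filter of 10 counts in every library, and depth limits these and Spp1. With coding in place of exon length 8 of the 10 genes kept their place in the WT order of levels, and 7 to 10 did with each WT library left out.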

Other observations

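Other secreted genes with a role in matrix turnover, chosen after their values were seen, also varied between the Pdgfra-Cre:LmnaF/F libraries. Postn, which encodes the matricellular protein periostin of activated fibroblasts, was at 254, 304, 595 and 204 CPM in WT and 455, 568, 293 and 3040 CPM in Pdgfra-Cre:LmnaF/F (log2 fold change 1.68, adjusted p = 0.264, edgeR). The fold rested on replicate 4, the library with the raised cardiomyocyte and macrophage markers, since the other 3 Pdgfra-Cre:LmnaF/F libraries lay within the WT range. Smoc2, which shares the calcium-binding domain of SPARC, was at 1672 to 2354 CPM in WT and 1126 to 1618 CPM in Pdgfra-Cre:LmnaF/F, lower without overlap as Sparc was (log2 fold change -0.57, adjusted p = 0.289, edgeR). Prg4, the lubricating proteoglycan of joints and tendon sheaths, was counted 23, 3, 0 and 49 times in WT and 169, 63, 76 and 1459 times in Pdgfra-Cre:LmnaF/F (log2 fold change 4.04, adjusted p = 0.112, edgeR).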
